A study of Mus musculus with 10 samples.

Results

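The genes described are Yap1 and Wwtr1, which encode the transcriptional coactivators YAP and TAZ, and 7 genes known as their targets: Ctgf, Cyr61, Ankrd1, Amotl1, Amotl2, Lats2 and Axl. They were taken by symbol from a table of 17053 genes, in which the 9 symbols occupy 10 rows because Lats2 is listed under 2 Ensembl identifiers, ENSMUSG00000021959 and ENSMUSG00000114942. All 10 rows passed the filter on low counts. The rows were taken by symbol and by no measured value, but the genes were chosen with earlier results of these data known. The measurements come from a comparison of chemistries for finding newly made RNA by sequencing, whose title names quantification bias as its subject. NIH-3T3 cells, a wild-type line of mouse fibroblasts, gave 10 libraries of total RNA, 2 for each of 5 groups, with replicates named A and B. Cells of 3 groups received 800 µM 4-thiouridine (4sU) for 2 h, a uridine analogue that is built into RNA made while it is present. In the TUC group the 4sU in the extracted RNA was converted with osmium tetroxide and an ammonium salt, in the SLAM group with iodoacetamide, and in the group called 4sU here it was left unconverted. The uridine group received 800 µM uridine for 2 h, and the untreated group received neither. Cell density at labelling, on which YAP activity is known to depend, is not given in the sources used here. A single line was used. The labels do not say whether A and B were separate cultures. Every p-value below therefore reflects the spread between libraries alone, which may be technical. In fits that include the replicate letter, a p-value reflects the spread left after the A to B difference shared by the groups is removed.

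YAP and TAZ do not bind DNA themselves but act through TEAD transcription factors. In the Hippo pathway, MST kinases (Stk3, Stk4) activate LATS kinases (Lats1, Lats2), which phosphorylate YAP and TAZ and keep them in the cytoplasm. When the pathway is quiet, YAP and TAZ enter the nucleus and raise the transcription of matricellular proteins, such as those of Ctgf and Cyr61, and also of their own inhibitors, such as Lats2 and the angiomotin family. In fibroblasts they are known as sensors of matrix stiffness and cell spreading.

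The gene counts summed to between 27094222 and 33785682 per library. All 8 fibroblast markers looked up were tested, and their summed level lay between 16707 and 24883 CPM, the count scaled to a common library total. Sums over the markers found were between 0.036 and 0.153 CPM for epithelial genes, between 0.292 and 1.13 CPM for endothelial genes, between 0.064 and 0.382 CPM for muscle and fat genes, and between 7.50 and 16.5 CPM for macrophage genes, where Cd68 was the highest.

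TEAD factors are known to bind DNA holding GGAATG, read on the other strand as CATTCC. The promoters are shown because the genes other than Yap1 and Wwtr1 are known as targets of YAP and TAZ, which act through TEAD. RefSeq's promoter table for GRCm38.p6, searched over the 250 bases before each start, held 8 of the 9 symbols, with Ctgf (Ccn2) not in it. The 6 letters, on either strand, occurred in 7 of the 10 sequences of these genes, belonging to 6 of the 8 symbols, against 12.6% of all 32851 sequences in the table. The 2 Wwtr1 sequences overlap and hold the same match, which is thus counted for both. The counts include the coactivator genes Yap1 and Wwtr1 and are thus not counts of targets alone. The share over all genes was not computed per symbol. Ankrd1 held 2 copies, starting 210 and 123 bases before the start, and 1.02% of all sequences held more than 1. Cyr61 (Ccn1) held 1 at 103 bases and Amotl2 1 at 65 bases, both in the antisense reading, and Yap1 itself held 1 at 141 bases. Wwtr1 and Axl also had a match, while the windows of Amotl1 and Lats2 had none of these letters. No sequence of these genes held a CArG box, the element bound by serum response factor, against 1.47% of all sequences. A match is a run of letters and not a measured site. Of the sequences below, each 5′ to 3′ on the gene's strand with the match in capitals, Ankrd1 lies at chr19:36119845-36120094 (minus strand), Cyr61 at chr3:145649986-145650235 (minus), Amotl2 at chr9:102717554-102717803 (plus) and Yap1 at chr9:8004597-8004846 (minus).
Ankrd1: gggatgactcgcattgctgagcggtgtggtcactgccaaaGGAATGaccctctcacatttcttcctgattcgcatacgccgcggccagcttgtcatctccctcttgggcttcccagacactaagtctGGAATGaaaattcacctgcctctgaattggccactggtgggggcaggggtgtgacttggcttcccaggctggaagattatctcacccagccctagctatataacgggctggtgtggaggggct
Cyr61: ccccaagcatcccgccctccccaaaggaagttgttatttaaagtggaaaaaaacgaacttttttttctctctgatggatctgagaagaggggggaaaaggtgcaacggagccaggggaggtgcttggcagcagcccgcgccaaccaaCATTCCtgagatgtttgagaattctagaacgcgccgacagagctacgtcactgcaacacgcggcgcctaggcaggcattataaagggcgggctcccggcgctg
Amotl2: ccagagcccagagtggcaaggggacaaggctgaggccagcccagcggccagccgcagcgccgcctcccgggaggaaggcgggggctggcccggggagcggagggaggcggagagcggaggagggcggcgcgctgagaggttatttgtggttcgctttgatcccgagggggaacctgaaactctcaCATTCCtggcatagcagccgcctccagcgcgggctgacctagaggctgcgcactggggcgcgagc
Yap1: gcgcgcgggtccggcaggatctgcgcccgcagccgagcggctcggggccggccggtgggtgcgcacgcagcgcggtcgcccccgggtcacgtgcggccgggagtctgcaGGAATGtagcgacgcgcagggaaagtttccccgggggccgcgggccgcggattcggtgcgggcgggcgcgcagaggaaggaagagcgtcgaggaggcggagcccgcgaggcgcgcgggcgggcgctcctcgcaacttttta

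Levels are CPM with TMM factors, and levels of different genes are compared per kb of the deposited gene length. In untreated cells Axl was the most abundant per kb, at 425 ± 1.87 CPM per kb (SD, n = 2, as for the following means), followed by Ctgf at 163 ± 23.6, Cyr61 at 119 ± 20.3 and Amotl2 at 59.4 ± 9.76. The libraries of each of these genes lay outside those of its neighbours in the order. Wwtr1, Yap1 and Ankrd1 came next at 28.9 ± 1.73, 28.8 ± 2.00 and 27.1 ± 10.2 CPM per kb, with overlapping libraries. The Lats2 row ENSMUSG00000021959, Amotl1 and the Lats2 row ENSMUSG00000114942 were lowest, at 16.4 ± 1.51, 15.2 ± 1.91 and 12.9 ± 1.52 CPM per kb, each overlapping the next. How reads were divided between the Lats2 rows is not given, so the level of either row is uncertain.

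A gene is said to be called when edgeR's quasi-likelihood test gave an adjusted p under 0.05 (Benjamini-Hochberg over 12218 genes). In the fit without the letter, 0 of the 10 rows were called in each of the 6 comparisons. Over all genes this fit called 0% for uridine over untreated, 0.164% for 4sU over untreated, 0.254% for 4sU over uridine, 0.344% for SLAM over 4sU, 0% for TUC over 4sU and 0% for TUC over SLAM. At an unadjusted p under 0.05, 1 row passed for SLAM over 4sU and 1 for TUC over 4sU. In each of the other comparisons 0 rows passed. Of the 12218 genes, 2284 passed for SLAM over 4sU, 846 for TUC over 4sU and 1205 for TUC over SLAM. For uridine over untreated 46 passed, for 4sU over untreated 1102 and for 4sU over uridine 1237. DESeq2 also called 0 rows in each comparison. Over all genes it called 0 for uridine over untreated, 241 for 4sU over untreated and 275 for 4sU over uridine. It called 693 for SLAM over 4sU, 15 for TUC over 4sU and 183 for TUC over SLAM.

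The letters A and B recur in every group, and A differed from B in a similar way in all of them, so a fit with the letter as a block was set beside the first. With this block, 0 of 10 rows were called for uridine over untreated (0.00818% of all genes) and 3 for 4sU over untreated (19.9%). It called 2 for 4sU over uridine (19.7%), 6 for SLAM over 4sU (41.6%), 3 for TUC over 4sU (25.8%) and 1 for TUC over SLAM (20.1%). Both libraries of one group lay outside those of the other in 0 rows for uridine over untreated (15.1% of all genes), 4 for 4sU over untreated (37.4%) and 3 for 4sU over uridine (36.3%). The same held for 8 rows for SLAM over 4sU (43.4%), 6 for TUC over 4sU (37.2%) and 4 for TUC over SLAM (31%). The calls named below are those of the fit with the letter, and none of them was made without it. The chemistries and uridine are each set against a group that serves in another comparison too, so these comparisons are not independent. Groups were sequenced from bulk RNA, in which fewer cells with an RNA and less of it per cell cannot be told apart.

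**Figure D1:**
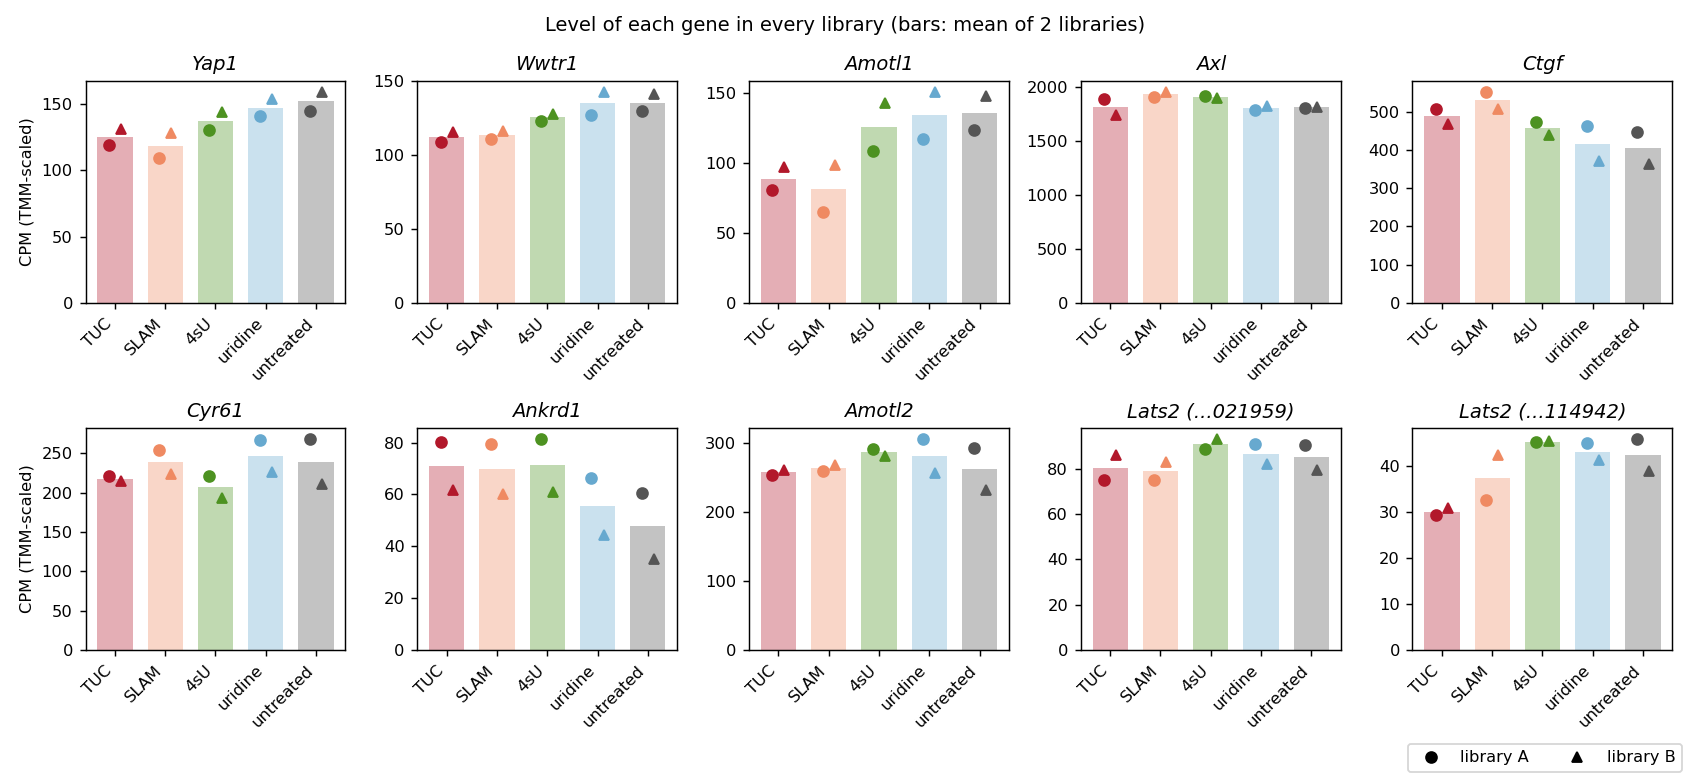
Level of each gene (y axis, TMM-scaled CPM, from 0) in the TUC, SLAM, 4sU, uridine and untreated groups (x axis); points are libraries A (circles) and B (triangles), bars the mean of both. Amotl1 sits at 64.7 to 98.5 CPM in the 4 converted libraries and at 108 to 151 CPM in the other 6, while Ankrd1 is higher in A than in B in every group.

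Yap1, the coactivator gene, had 119 and 131 CPM in TUC A and B, 109 and 128 CPM in SLAM, 131 and 144 CPM in 4sU, 141 and 154 CPM in uridine and 145 and 159 CPM in untreated libraries. B exceeded A in every group, and the higher 4sU library lay just under the lower untreated one. SLAM over 4sU was -0.21 ± 0.05 on the log2 scale (block fit, ± SE as for all fold changes below, edgeR adjusted p = 0.00377), a call lost when the library 4sU A was left out (adjusted p = 0.0663). TUC over 4sU was -0.14 ± 0.05 (edgeR adjusted p = 0.0655) and 4sU over untreated -0.15 ± 0.05 (edgeR adjusted p = 0.056), neither called.

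Wwtr1, the gene of TAZ, had 109 and 116 CPM in TUC, 111 and 116 CPM in SLAM, 123 and 128 CPM in 4sU, 127 and 143 CPM in uridine and 130 and 141 CPM in untreated libraries. The 4 converted libraries lay below the 6 others. Wwtr1 was called lower with both chemistries, at -0.16 ± 0.05 for TUC over 4sU (edgeR adjusted p = 0.0365) and -0.14 ± 0.05 for SLAM over 4sU (edgeR adjusted p = 0.0383). The TUC call was lost whichever of the libraries TUC A, TUC B, 4sU A or 4sU B was left out, and the SLAM call remained only without SLAM A, so the adjusted p reached 0.307 and 0.304.

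The secreted matricellular proteins of Ctgf (CCN2) and Cyr61 (CCN1) are the most widely used readouts of YAP and TAZ activity. Ctgf had 507 and 469 CPM in TUC, 553 and 507 CPM in SLAM, 474 and 440 CPM in 4sU, 462 and 371 CPM in uridine and 446 and 363 CPM in untreated libraries. The SLAM libraries were the highest and did not overlap the 4sU libraries, whereas the untreated and 4sU libraries overlapped. Ctgf was called higher for SLAM over 4sU, at 0.21 ± 0.06 (edgeR adjusted p = 0.0109, lost only without 4sU A at 0.155). It was also called for 4sU over untreated, at 0.18 ± 0.06 (edgeR adjusted p = 0.0496), where leaving out any of the 4 libraries untreated A, untreated B, 4sU A or 4sU B ended the call. TUC over 4sU was 0.09 ± 0.06 and not called.

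Cyr61 had 221 and 214 CPM in TUC, 255 and 223 CPM in SLAM, 221 and 193 CPM in 4sU, 267 and 227 CPM in uridine and 269 and 211 CPM in untreated libraries. The 4sU libraries were below both uridine libraries, but 4sU A lay above untreated B. Cyr61 was called lower for 4sU over untreated, at -0.21 ± 0.06 (edgeR adjusted p = 0.0262), and for 4sU over uridine, at -0.25 ± 0.06 (edgeR adjusted p = 0.00912). The first of these calls remained only without untreated B and the other was lost whichever of uridine A, uridine B, 4sU A or 4sU B was left out, with adjusted p up to 0.387 and 0.107. For SLAM over 4sU Cyr61 was called higher, at 0.21 ± 0.06 (edgeR adjusted p = 0.0126), a call that remained without SLAM A or SLAM B and was lost without 4sU A or 4sU B.

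Ankrd1 encodes a nuclear and sarcomeric ankyrin-repeat protein that is induced by stretch in muscle and by YAP in many cells. It had 80.2 and 61.6 CPM in TUC, 79.3 and 60.1 CPM in SLAM, 81.5 and 61.0 CPM in 4sU, 66.2 and 44.5 CPM in uridine and 60.5 and 35.1 CPM in untreated libraries. Its mean was 71.3 ± 14.5 CPM in 4sU and 47.8 ± 17.9 CPM in untreated cells (SD, n = 2 each), so the group means differed by little more than the spread within a group. Within a letter the fold was 1.35 in A and 1.74 in B. The block fit gave 0.60 ± 0.08 on the log2 scale (edgeR adjusted p = 8.43e-05), the largest fold among these genes in this comparison, and the call was kept whichever of the 4 libraries was left out, with adjusted p up to 0.004. The fit without the letter gave 0.58 ± 0.31 (edgeR adjusted p = 0.689). For 4sU over uridine the block fit gave 0.38 ± 0.08 (edgeR adjusted p = 0.00385), a call lost without uridine B or 4sU B. The 3 groups given 4sU hardly differed from one another in Ankrd1, with log2 fold changes of -0.03 ± 0.08 for SLAM over 4sU and 0.00 ± 0.08 for TUC over 4sU, neither called.

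Of the targets that feed back on YAP and TAZ, Amotl1 encodes an angiomotin-like scaffold that binds YAP and holds it outside the nucleus. Amotl1 had 80.3 and 96.8 CPM in TUC, 64.7 and 98.5 CPM in SLAM, 108 and 143 CPM in 4sU, 117 and 151 CPM in uridine and 124 and 148 CPM in untreated libraries. Every converted library was below every unconverted one, and B exceeded A in all 5 groups. SLAM over 4sU was -0.63 ± 0.07 (edgeR adjusted p = 8.95e-06) and TUC over 4sU -0.50 ± 0.07 (edgeR adjusted p = 0.000407) in the block fit, and both calls were kept without any 1 of the libraries compared. The fit without the letter gave -0.62 ± 0.24 (edgeR adjusted p = 0.216) and -0.50 ± 0.24 (edgeR adjusted p = 0.704). For 4sU over untreated Amotl1 was at -0.12 ± 0.07 and not called.

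Amotl2, the paralogue with the same role, had 254 and 261 CPM in TUC, 259 and 268 CPM in SLAM, 292 and 281 CPM in 4sU, 307 and 258 CPM in uridine and 294 and 233 CPM in untreated libraries. The converted libraries lay below the 4sU libraries but within the span of the untreated ones. With all 10 libraries in the fit it was called in none of the 6 comparisons. SLAM over 4sU was -0.12 ± 0.08 and TUC over 4sU -0.15 ± 0.08. The estimates depended on single libraries: SLAM over 4sU was -0.22 without SLAM B and -0.01 without SLAM A. Likewise, 4sU over untreated was 0.27 without untreated A and -0.01 without untreated B.

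Lats2 encodes the kinase that phosphorylates YAP and TAZ. Its row ENSMUSG00000114942 had 29.2 and 30.8 CPM in TUC, 32.6 and 42.2 CPM in SLAM, 45.2 and 45.3 CPM in 4sU, 44.9 and 41.3 CPM in uridine and 45.9 and 38.8 CPM in untreated libraries. The TUC libraries were the lowest and overlapped no other group. TUC over 4sU was -0.59 ± 0.10 (edgeR adjusted p = 0.0012), kept without any 1 of the 4 libraries. SLAM over 4sU was -0.27 ± 0.10 (edgeR adjusted p = 0.0413) and TUC over SLAM -0.32 ± 0.10 (edgeR adjusted p = 0.0406), and each of these was kept in 1 of 4 cases, without SLAM B and without SLAM A, and was otherwise lost.

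The other Lats2 row, ENSMUSG00000021959, had 74.9 and 86.2 CPM in TUC, 75.1 and 82.9 CPM in SLAM, 88.7 and 93.3 CPM in 4sU, 90.8 and 82.3 CPM in uridine and 90.7 and 79.6 CPM in untreated libraries. With all 10 libraries in the fit it was not called in any comparison. TUC over 4sU was -0.17 ± 0.08 (edgeR adjusted p = 0.124) and SLAM over 4sU -0.20 ± 0.08 (edgeR adjusted p = 0.0531). The SLAM over 4sU estimate was -0.29 without SLAM B and -0.12 without SLAM A. Whether the rows differ in their response was not tested.

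Axl, a receptor tyrosine kinase for Gas6, had 1888 and 1741 CPM in TUC, 1908 and 1961 CPM in SLAM, 1919 and 1900 CPM in 4sU, 1793 and 1828 CPM in uridine and 1808 and 1819 CPM in untreated libraries. Its libraries spanned a narrow range beside their level, and it was called in none of the comparisons, its block log2 fold changes lying between -0.09 ± 0.06 for TUC over SLAM and 0.08 ± 0.06 for 4sU over uridine.

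**Figure D2:**
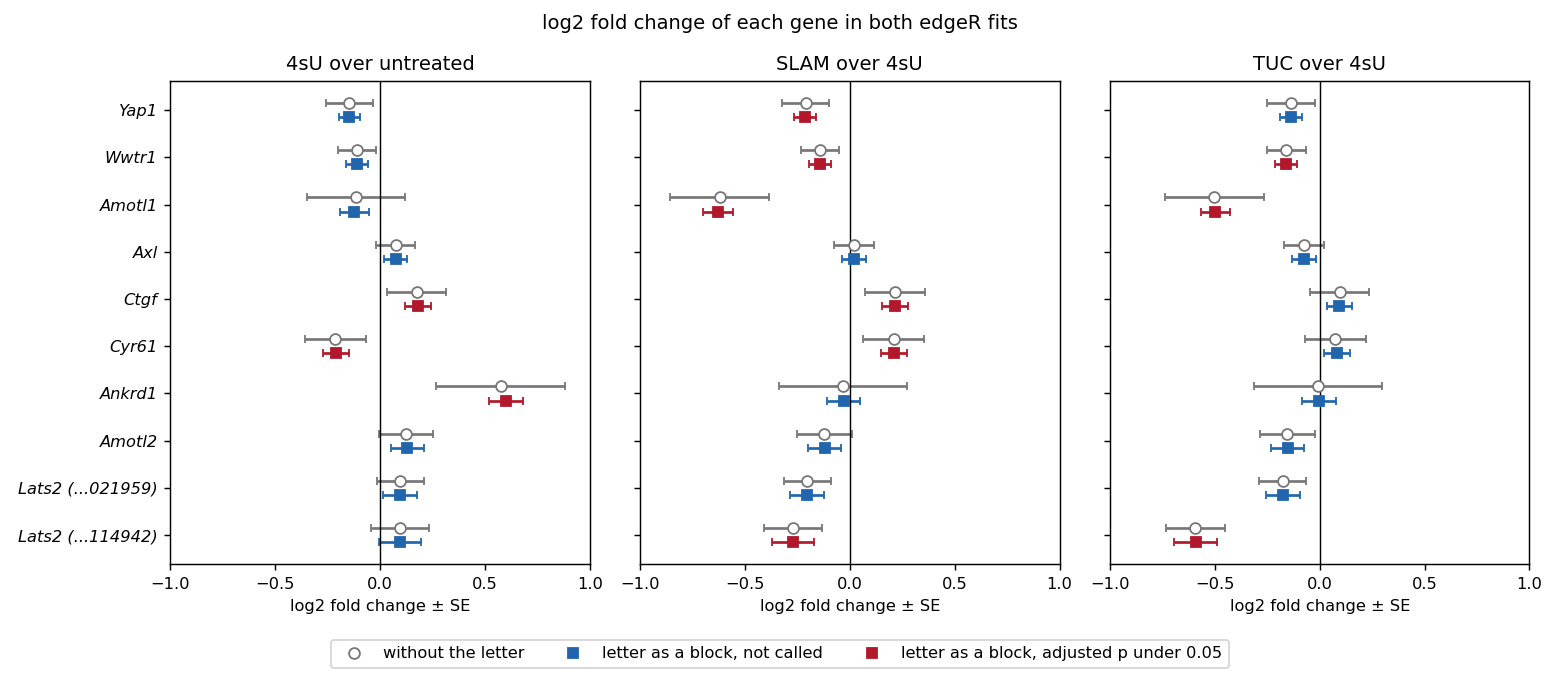
log2 fold change (x axis, ± SE) of each gene (y axis) for 4sU over untreated, SLAM over 4sU and TUC over 4sU, from the fit without the letter (open circles) and with it as a block (squares, red where the adjusted p was under 0.05). The estimates nearly coincide and the errors shrink with the block; Amotl1 lies at -0.63 and -0.50 for SLAM and TUC over 4sU and Ankrd1 at 0.60 for 4sU over untreated.

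The deposited new-to-total RNA ratio (NTR) is the fraction of a gene's RNA estimated to have been made during the 2 h of labelling, with a lower and an upper quantile of 0.05 and 0.95. In libraries without conversion, where it should be near 0, the NTR of these genes was 0.0187 to 0.0385 in 4sU and 0.0058 to 0.032 in uridine. In the converted libraries the genes fell into a near-complete set, a middle set and Axl. NTR was 0.9 or more in all 4 converted libraries for 6 of the 10 rows, against 20.3% of 10202 genes by their TUC mean and 19.6% by their SLAM mean. The median over the rows was 0.965 in TUC and 0.975 in SLAM, against 0.586 and 0.566 over all genes.

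The coactivators themselves were in the middle set. Yap1 had an NTR of 0.62 and 0.708 in TUC A and B and 0.627 and 0.663 in SLAM A and B. Wwtr1 had 0.667 and 0.768 in TUC and 0.637 and 0.724 in SLAM. The libraries of Yap1 and Wwtr1 overlapped, and for both genes B was above A with either chemistry, as was the median over all genes (0.544 and 0.63 in TUC A and B, 0.523 and 0.611 in SLAM A and B). Within every converted library Wwtr1 was above Yap1, with overlapping deposited quantiles in SLAM A alone.

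The secreted targets were listed as almost wholly new. Ctgf had an NTR of 1 in all 4 libraries, a value held by 42 to 245 of 10202 genes per library. Its lower quantile was 0.9965 and 0.9971 in TUC and 0.9989 and 0.9987 in SLAM. Cyr61 had 1 and 0.994 in TUC and 1 in both SLAM libraries.

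Among the feedback genes, Amotl2 had an NTR of 0.995 and 0.992 in TUC and 1 and 0.9993 in SLAM, and Lats2 lay between 0.953 and 0.983 over both rows and all 4 libraries. Ankrd1 was as high, with 0.987 and 0.99 in TUC and 1 and 0.9996 in SLAM. Amotl1 stood apart from its paralogue, with 0.746 and 0.771 in TUC and 0.722 and 0.766 in SLAM, above every library of Yap1 but overlapping Wwtr1. Within every converted library it was above Wwtr1.

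Axl was the lowest, with 0.192 and 0.247 in TUC and 0.179 and 0.227 in SLAM, so that most of its RNA predated the label. No library of Axl reached those of another of the genes.

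**Figure D3:**
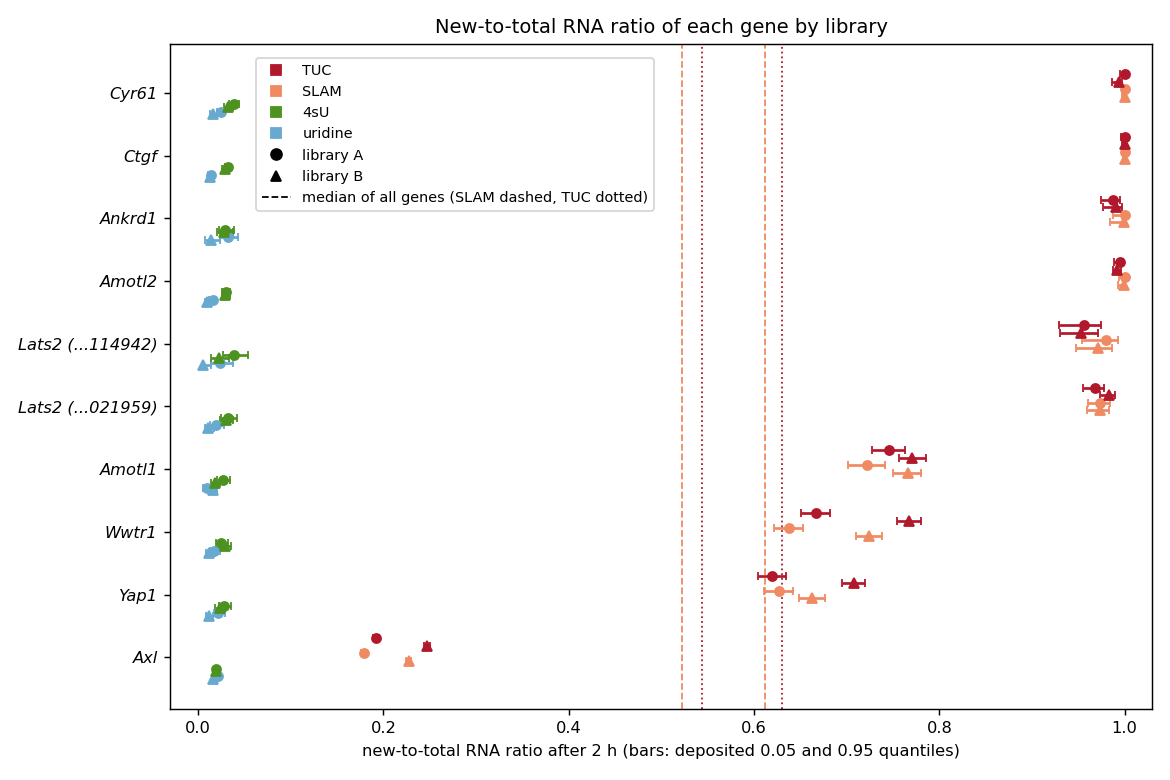
New-to-total RNA ratio after 2 h (x axis, from 0 to 1) of each gene (y axis) in TUC, SLAM, 4sU and uridine libraries A (circles) and B (triangles), with the deposited 0.05 and 0.95 quantiles as bars and the all-gene medians of the SLAM (dashed) and TUC (dotted) libraries as lines. Ctgf, Cyr61, Ankrd1, Amotl2 and both Lats2 rows sit above 0.95, Amotl1, Wwtr1 and Yap1 between 0.62 and 0.771, and Axl below 0.25; libraries without conversion lie at 0.0385 or less.

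If a gene's level is steady over the labelling time, its NTR gives a half-life, which was computed with no subtraction of the values in unconverted libraries. Yap1 RNA had a half-life of 1.28 ± 0.22 h in TUC and 1.34 ± 0.09 h in SLAM (SD, n = 2 each, as for the other half-lives). Wwtr1 had 1.11 ± 0.22 h in TUC and 1.22 ± 0.21 h in SLAM, and Amotl1 0.977 ± 0.05 h in TUC and 1.02 ± 0.09 h in SLAM. Neighbours in this order overlapped in both chemistries, whereas the libraries of Yap1 and Amotl1 did not.

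Axl RNA had a half-life of 5.69 ± 1.15 h in TUC and 6.21 ± 1.17 h in SLAM. Lats2 means ranged over both rows and chemistries from 0.372 to 0.449 h. For the genes at or near an NTR of 1 only an upper limit can be given, from the lower deposited quantile of the less complete library. It was 14.7 min in TUC and 12.5 min in SLAM for Ctgf, 19.2 and 14.3 min for Cyr61, 19.2 and 17.1 min for Amotl2, and 22.8 and 20.2 min for Ankrd1. Ankrd1 and Ctgf were called higher and Cyr61 lower in 4sU than in untreated cells in the block fit, and a steady level over the 2 h was not tested for any of the genes. Totals in converted libraries also shifted with NTR. For SLAM over 4sU the median block log2 fold change was 0.14 over genes with a mean NTR up to 0.3 and -0.16 over those at 0.9 or more. For TUC over 4sU these medians were 0.16 and -0.10. Whether such shifts, or the lower Amotl1 total, alter NTR, half-life or pre-existing RNA was not tested.

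Splitting each CPM by its NTR gives new and pre-existing RNA. Pre-existing Axl RNA was 84.4% and 72.05% of the untreated level of the same letter in TUC A and B, and 86.7% and 83.3% in SLAM A and B. Pre-existing Yap1 RNA was 31.3% and 24.0% in TUC and 28.2% and 27.1% in SLAM, and pre-existing Wwtr1 RNA 28.0% and 19.1% in TUC and 31.1% and 22.7% in SLAM. For Amotl1, whose total was lower in converted libraries, it was 16.5% and 14.99% in TUC and 14.6% and 15.6% in SLAM.

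Of Lats2, 1.41 to 3.71% of the untreated level was left as pre-existing RNA over both rows and all 4 libraries. The new RNA of Ctgf, equal to its total, averaged 488 ± 26.8 CPM in TUC and 530 ± 31.9 CPM in SLAM. The new RNA of Axl averaged 397 ± 48.2 CPM in TUC and 393 ± 73.8 CPM in SLAM, the smaller part of its total.

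**Figure D4:**
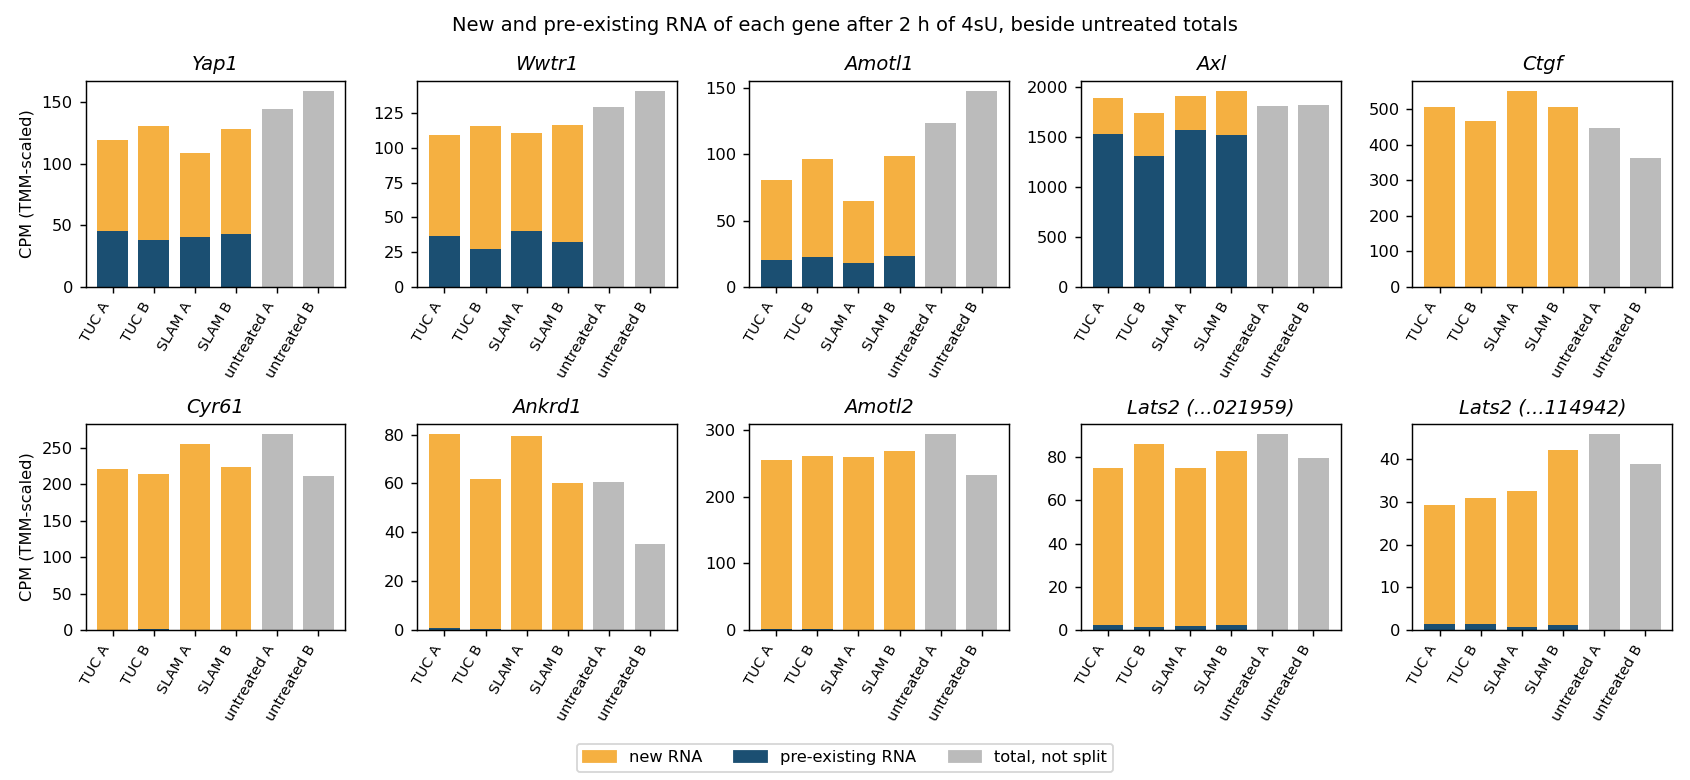
New (orange) and pre-existing (blue) RNA of each gene in TUC A, TUC B, SLAM A and SLAM B beside the undivided total (grey) of untreated A and B (y axis, TMM-scaled CPM, from 0). Axl keeps 72.05 to 86.7% of its untreated level as pre-existing RNA, Yap1 24.0 to 31.3%, and Ctgf none that can be seen.

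TUC and SLAM were set against each other on the log2 odds of NTR with limma over 10202 genes, of which 27 were called (0.265%), 5 higher (0.049%) and 22 lower (0.216%) in TUC, and 245 had an unadjusted p under 0.05. Of the 10 rows 1 was called, Ankrd1, at 0.989 ± 0.0021 in TUC and 0.9998 ± 0.00028 in SLAM (SD, n = 2 each), a difference of -3.48 ± 0.38 in log2 odds (limma adjusted p = 0.0161). The difference is -0.011 as a plain fraction, and the call lies at the ceiling of the scale: it was lost when values were held at 0.99 or below (limma adjusted p = 1) and with the letter as a block (limma adjusted p = 0.573). Amotl2 differed by -2.66 ± 0.40 (limma adjusted p = 0.0768) without a call. This difference also lies at the ceiling: it was -0.0061 as a plain fraction and 0 when values were held at 0.99 or below. For Yap1, Wwtr1, Amotl1 and Axl the plain difference was 0.0192, 0.0363, 0.0147 and 0.0167, each smaller than the gap between A and B in SLAM. Within a letter, TUC was above SLAM in both A and B for Wwtr1, Amotl1 and Axl, as was the median over all genes, and in B alone for Yap1. None of these genes was called with the letter as a block.

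Other genes of the pathway were taken from 2 lists. Of 28 Hippo components (kinases, their scaffolds, TEAD factors and upstream cadherins) 27 were tested, and of 16 further genes reported as YAP and TAZ targets 14 were in the table and tested. Without the letter 0 genes of either list were called in any comparison. With the letter as a block, 1 Hippo component was higher and 7 lower for 4sU over untreated, against 6.97% and 12.9% of all genes. The lower ones included Strn3, part of a phosphatase complex that opposes the MST kinases, at -0.57 ± 0.06, Mob1b, a LATS coactivator, at -0.30 ± 0.06 and the kinase gene Map4k4 at -0.29 ± 0.06. The higher one was the TEAD factor gene Tead4 at 0.18 ± 0.06, named, like the others in counts of 5 or fewer, after its values were seen. For SLAM over 4sU 4 were higher and 16 lower, against 20% and 21.6% of all genes, and for TUC over 4sU 1 was higher and 16 lower, against 11.6% and 14.2%.

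The lower components included the Amotl1 relative Amot at -0.42 ± 0.06 in TUC and -0.61 ± 0.06 in SLAM and the giant cadherin gene Fat1 at -0.69 ± 0.09 in TUC and -0.62 ± 0.08 in SLAM. Mob1b at -0.60 ± 0.06 and the kinase gene Taok1 at -0.54 ± 0.07 were among the 4 largest for SLAM, and Fat4 at -0.75 ± 0.16 and Tead1, a DNA-binding partner of YAP, at -0.37 ± 0.08 for TUC. The higher ones for SLAM included Wtip at 0.49 ± 0.10 and Tead2 and Tead3 at 0.38 each, and the 1 higher for TUC was Tead2 at 0.17 ± 0.06. The TEAD factors were thus split, with Tead1 at -0.37 ± 0.08 and Tead4 at -0.34 ± 0.06 also called lower for SLAM over 4sU. The median over the 27 components was -0.20 for TUC over 4sU and -0.24 for SLAM over 4sU, against 0.01 and 0.00 over all genes. For 4sU over uridine 0 were higher and 9 lower, against 6.48% and 13.3% of all genes, for TUC over SLAM 3 higher and 3 lower, against 10% and 10.1% (Mob1b at 0.48, Taok1 at 0.27 and Stk3 at 0.20, and Tead3 at -0.36, Taok3 at -0.27 and Tead2 at -0.21), and for uridine over untreated 0 were called. The lower ones over uridine included Strn3 at -0.58, Mob1b at -0.32 and Map4k4 at -0.27.

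Of the further targets, 1 was called higher, F3 at 0.24 ± 0.08, and 4 lower for 4sU over untreated, against 6.97% and 12.9% of all genes. The lower ones were Dock5 at -0.43 ± 0.06, Asap1 at -0.34 ± 0.05, Crim1 at -0.33 ± 0.05 and Myof at -0.26 ± 0.06. The same 4 were lower for 4sU over uridine, and 0 were higher, against 13.3% and 6.48% of all genes. For TUC over 4sU 0 were higher and 6 lower, against 11.6% and 14.2% of all genes, led by Ptpn14, a phosphatase that restrains YAP, at -0.49 ± 0.08, with Dock5 at -0.41 ± 0.06 and Arhgef17 and Crim1 at -0.38 each. For SLAM over 4sU 3 were higher and 4 lower, near the shares of all genes (20% and 21.6%), with Ptpn14 at -0.59 ± 0.08, Crim1 at -0.39 ± 0.06, Dock5 at -0.36 ± 0.06 and Myof at -0.21 ± 0.06 lower and Foxf2, a transcription factor gene, at 0.30 ± 0.06, Nuak2 at 0.23 ± 0.08 and Ccdc80 at 0.17 ± 0.06 higher. For TUC over SLAM 0 were higher and 3 lower, against 10% and 10.1% of all genes: Fjx1 at -0.37 ± 0.12, Foxf2 at -0.30 ± 0.06 and Arhgef17 at -0.22 ± 0.07. The list medians were -0.15 for 4sU over untreated, -0.09 for TUC over 4sU and -0.05 for SLAM over 4sU, against 0.01, 0.01 and 0.00 over all genes.

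By NTR the further targets also held both extremes. Nuak2, a kinase gene, had a mean of 0.991 in TUC and 1 in SLAM, and F3, the gene of tissue factor, 0.984 in TUC and 1 in SLAM, followed by Foxf2 at 0.949 in TUC and 0.966 in SLAM and Gadd45a at 0.925 and 0.952, while Myof had 0.221 and 0.21 and Ccdc80 0.132 and 0.133. The median was 0.878 in TUC and 0.849 in SLAM over 14 genes, of which 5 were at 0.9 or more, against 20.3% of all genes in TUC and 19.6% in SLAM. Among 26 Hippo components with enough reads, 7 were at 0.9 or more, not far from the same shares of all genes, with a median of 0.755 in TUC and 0.735 in SLAM. Highest by SLAM were Vgll4, a repressor that competes for TEAD, and Lats1, each at 0.968 in TUC and 0.967 in SLAM, then Ajuba at 0.973 in TUC and 0.951 in SLAM and Tead4 at 0.946 and 0.936. Tead2 at 0.235 in TUC and 0.239 in SLAM and Nf2, the gene of merlin, at 0.342 and 0.328, were lowest.

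The genes most like Yap1 across the 10 libraries, by Pearson correlation of log2 CPM among 8799 genes, were Pdpk1 (0.996), Fndc3a (0.996) and Csnk1g1 (0.995). Ctgf was most like Map6 (0.984), Gadd45gip1 (0.974) and Pim3 (0.966), Cyr61 most like Pacsin2 (0.935), Det1 (0.933) and Med6 (0.92), and Ankrd1 most like Fen1 (0.977) and Trmt10c (0.957). No gene of the set was among these. Within the set, Yap1 correlated with Amotl1 at 0.976, with Wwtr1 at 0.94 and with Ctgf at -0.937. Cyr61 lay between -0.30 (Amotl1) and 0.45 (Amotl2) with the other rows. The libraries share the letters and the chemistry, so these likenesses describe the libraries and carry no test.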

How the data were processed

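Total RNA of NIH-3T3 cells was sequenced in 10 libraries, 2 per group, grouped by sample title. The submitters' processing notes name STAR 2.7.10b, Bowtie2 2.3.0 and cutadapt. None of the sources used here gives the build, annotation, counting tool or strand setting behind the counts, so reads of overlapping or antisense genes may be shared. The deposited expected counts, unscaled per the file headers and values, hold values that are not whole in 24.8 to 30.3% of genes per library and were rounded. The authors deposited a fraction between 0 and 1 per gene with lower and upper quantiles, per the file headers, which do not name it; it is taken as the NTR. The gene length was deposited without saying which. Per library, 24 columns in all were not used.

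Genes passing filterByExpr (12218) were TMM-scaled and tested with edgeR 4.0.16 in 1 fit over 10 libraries (R 4.3.3), and with the replicate letter as a block. The labels do not say what a letter shares; it was taken to pair libraries because A minus B differences of log2 CPM correlated between groups (r 0.759 to 0.848 over 10 pairs). Common dispersion was 0.00195 with the block and 0.0187 without. DESeq2 1.42.0 was an alternative. NTR was tested with limma 3.58.1 on log2(NTR/(1 - NTR)), held between 0.001 and 0.999, for genes with a mean of 100 counts or more. Half-life was the labelling time times ln 2 over the negative of ln(1 - NTR). The scripts were tested on simulated data. These held no difference between the letters, and their count changes were larger than those reported here. That test thus does not cover the calls that depend on the block.

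The genes and lists were chosen with earlier results of these data known. All 9 symbols were named in each comparison. From the lists, up to 4 called genes of largest change were eligible per comparison, and by NTR the 4 highest and 2 lowest. Likeness took the top 3 among genes with a mean of 10 CPM or more. Some genes that these rules name are not reported here. Promoters and names come from RefSeq GRCm38.p6. The symbols of the genes overlapping Wwtr1, Amotl1, Ctgf or Lats2 in its annotation are not in the count table. A gene counted under another symbol would be missed by this search.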

Additional observations from a re-analysis of the deposited data

Results flagged for a closer look

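An NTR above 0 was listed in libraries that were never converted, and it was higher with 4sU than with uridine. Both 4sU libraries lay above both uridine libraries for 7 of the 10 rows, as they did for 4600 of 10202 genes (45.1%). The mean difference, 4sU minus uridine, was 0.0172 for Amotl2, 0.0169 for Ctgf, 0.016 for the Lats2 row ENSMUSG00000021959, 0.0152 for Cyr61, 0.0121 for Wwtr1, 0.0104 for Amotl1 and 0.00915 for Yap1. The groups overlapped for Axl, Ankrd1 and the Lats2 row ENSMUSG00000114942. These values are small beside the NTR of the same genes in converted libraries, and what they come from was not tested.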

How the results depend on the processing

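The count of rows called in the fit without the letter was 0 in all 6 comparisons and stayed 0 with DESeq2, library totals, either filter on low counts, only the 2 groups compared, or any 1 library left out. With the replicate block it was 3 for 4sU over untreated, 2 for 4sU over uridine, 6 for SLAM over 4sU, 3 for TUC over 4sU and 1 for TUC over SLAM, and 0 for uridine over untreated. Leaving out 1 library from the fit with the block, an alternative added after seeing the data, gave 1 to 2, 0 to 1, 1 to 7, 2 to 2 and 0 to 2 for the first 5 of these, and 0 for the last. Amotl1 in both chemistries, Ankrd1 for 4sU over untreated and the Lats2 row ENSMUSG00000114942 in TUC over 4sU kept their calls throughout that series. No single fold change that was called turned its sign. The NTR difference between TUC and SLAM called 1 row, but 0 with the replicate block, with values held within 0.01 to 0.99, with a mean of 20 counts or more, and as a plain difference, and 1 to 2 with a library left out. With 2 libraries a group, the calls rest on the letter pairing the libraries, which the labels do not state.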

Other observations

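Of the 10 rows, 6 kept the same order of A and B in every group. The share of all genes that did so was not computed, so this count does not set these genes apart. Over 12218 genes the A minus B differences of log2 CPM also correlated between groups (r 0.759 to 0.848). Ankrd1, Ctgf and Cyr61 were higher in A than in B in 5 of 5 groups, by 0.38 to 0.78, 0.11 to 0.32 and 0.05 to 0.35 on the log2 scale of CPM. Amotl1, Wwtr1 and Yap1 were higher in B in 5 of 5 groups, with A over B from -0.61 to -0.26, -0.17 to -0.05 and -0.23 to -0.12. Amotl2, Axl and both Lats2 rows had no constant order. What the letters stand for is not given in the sources used here.

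Ctgf and Cyr61 went against the run of genes with near-complete NTR in the SLAM libraries. Of 1995 genes with a mean SLAM NTR of 0.9 or more, 10.1% were called higher and 41.4% lower for SLAM over 4sU with the letter as a block. Their median log2 fold change was -0.16, while Ctgf and Cyr61 were each called higher at 0.21. The other rows of the set at 0.9 or more were not higher. Amotl2 was at -0.12, Ankrd1 at -0.03 and the Lats2 rows ENSMUSG00000114942 and ENSMUSG00000021959 at -0.27 and -0.20. Amotl1, at -0.63, was among 1736 genes with a mean NTR from 0.6 to 0.8, whose quartiles were -0.23 and 0.10. For TUC over 4sU the median was -0.10 over 2071 genes at 0.9 or more, and Ctgf and Cyr61 were at 0.09 and 0.08, not called. NTR and fold change share the SLAM or TUC libraries, and whether these genes differ from others of their NTR was not tested.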
